A study of Homo sapiens with 10 samples.

Results

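The ROBO receptors and their SLIT ligands are encoded by 7 genes, ROBO1, ROBO2, ROBO3, ROBO4, SLIT1, SLIT2 and SLIT3, out of 19974 protein-coding genes on chromosomes 1 to 22 and X. They were taken by name with earlier results of these data known, so their unadjusted p-values are descriptive. A peak belonged to a gene when it overlapped the gene's RefSeq span (GRCh38) or the 2 kb on either side by 1 bp or more. The peaks were of H4R3me2s, the symmetric dimethylation of arginine 3 on histone H4 that PRMT5 mainly writes, measured by chromatin immunoprecipitation and sequencing (ChIP-seq) in SH-SY5Y, a human neuroblastoma line. The Naive libraries (n = 3) came from undifferentiated cells. The BDNF libraries (n = 3) came from cells that first received retinoic acid (10 µM, 6 days) and afterwards the neurotrophin BDNF (50 ng/ml, 4 days). The BDNF+Dox libraries (n = 3) came from cells treated in the same way, with 1 µg/ml doxycycline for 3 days to switch on α-synuclein through a Tet-on system. The growth medium of all cells held 10% fetal calf serum and 300 µg/ml zeocin, and cells were fixed in 1% formaldehyde for 10 min. The 1 Input library without antibody was the control for all 9 ChIP libraries. Whether its cells received retinoic acid, BDNF or doxycycline is not recorded. Doxycycline alone, in cells that lack the construct, was not analysed here, so the drug and the protein cannot be told apart. The labels do not say whether replicates were separate cultures, so the p-values rest on a spread between libraries that may be technical. Peak lists hold no expression values, so the line could not be checked against marker genes.

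SLIT proteins are large secreted ligands that bind the first immunoglobulin domain of ROBO receptors on growing axons and migrating cells. Binding usually repels the growth cone, through adaptor proteins that act on the actin cytoskeleton. ROBO1 and ROBO2 are the main SLIT receptors of the nervous system, ROBO3 modulates midline crossing and ROBO4 is expressed mostly in endothelium.

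The 7 genes differ widely in length. ROBO2 spans chr3:75906675-77649964 (1743 kb) and ROBO1 spans chr3:78597239-79767998 (1171 kb), 947 kb apart on the same chromosome. ROBO3 (chr11:124865432-124881471, 16.0 kb) and ROBO4 (chr11:124883691-124897865, 14.2 kb) are short neighbours. SLIT1 lies at chr10:96998038-97185959 (188 kb), SLIT2 at chr4:20251905-20620561 (369 kb) and SLIT3 at chr5:168661740-169301139 (639 kb). ROBO1 and ROBO2 together hold 70.1% of the combined 4.17 Mb, flanks included. Exons and introns were not told apart, because only gene spans and start sites were at hand.

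ROBO1 and ROBO2 each have a pair of start sites in RefSeq (GRCh38.p14), here called outer and inner. The ROBO2 span begins 404 kb before the outer of these, and no start is listed at that end, so distances for ROBO2 are to the listed starts alone. The 250 bases before a start are shown for both ROBO2 starts and for the outer ROBO1 start, because the single peak within 2 kb of any listed start of the 7 genes lay there. The sequences run 5′ to 3′ on the gene's strand, and every CG dinucleotide is in capitals. CG reads the same on both strands.
ROBO2 outer start, chr3:76310630-76310879, plus strand: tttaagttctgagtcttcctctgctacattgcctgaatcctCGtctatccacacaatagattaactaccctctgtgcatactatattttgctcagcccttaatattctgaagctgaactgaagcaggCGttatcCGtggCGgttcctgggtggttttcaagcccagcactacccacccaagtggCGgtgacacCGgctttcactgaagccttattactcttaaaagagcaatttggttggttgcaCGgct
ROBO2 inner start, chr3:77039849-77040098, plus strand: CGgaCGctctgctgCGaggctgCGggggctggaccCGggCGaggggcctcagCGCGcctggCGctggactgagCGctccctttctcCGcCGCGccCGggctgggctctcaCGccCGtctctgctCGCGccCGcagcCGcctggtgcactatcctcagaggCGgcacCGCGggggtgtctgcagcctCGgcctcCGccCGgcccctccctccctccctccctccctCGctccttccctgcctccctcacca
ROBO1 outer start, chr3:79767999-79768248, minus strand: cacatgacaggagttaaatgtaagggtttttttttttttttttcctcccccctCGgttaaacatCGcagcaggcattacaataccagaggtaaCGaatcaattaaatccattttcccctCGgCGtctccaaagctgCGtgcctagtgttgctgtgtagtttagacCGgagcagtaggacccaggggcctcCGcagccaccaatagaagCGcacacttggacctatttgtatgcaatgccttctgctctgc
The inner ROBO2 window holds 27 CG pairs at a GC content of 76%, and 22.5% of the 22156 windows of this length before RefSeq starts hold as many. The outer ROBO2 window holds 7 CG pairs at 46.8% GC and the outer ROBO1 window 9 at 48% GC. Over all windows the median was 16 CG pairs and 62% GC, and 96.8% held at least 1 CG pair. None of the 9 libraries and none of the pooled lists had a peak in the 300-base window (250 bases before to 50 after the start) of any of the 11 listed starts of the 7 genes. Such windows seldom held one anywhere, with a library peak in 29 of 22132 (0.131%) over all protein-coding genes.

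H4R3me2s peaks were found in the long receptor genes and in few other places of the family. In the 9 libraries together, ROBO2 held 54 peaks, ROBO1 39, SLIT2 10, SLIT3 5 and SLIT1 1, while ROBO3 and ROBO4 had 0. ROBO1 and ROBO2 thus carried 93 of the 109 peaks, or 85.3%. ROBO1 had a peak in 9 of 9 libraries, ROBO2 in 8, SLIT2 in 7, SLIT3 in 3 and SLIT1 in 1. ROBO3 and ROBO4 measure 0.0200 and 0.0182 Mb with their flanks, and the 9 libraries held between 1.42 and 3.45 peaks per Mb of protein-coding gene, so few peaks would be listed in genes of this length at those rates.

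The peaks themselves were small. With Input as control, the authors' folds over local background of the 109 peaks ran from 2.44 to 4.92. Their median was 3.36, beside 3.47 over all 67301 library peaks on the chromosomes used. A −log10 p of 3 or more was reached by 62.4% of the 109 and by 74.4% of all peaks. The q-value was 1 for 93 of the 109, without a count over all library peaks to set beside it. It was 0.05 or less for 1. That peak lay in ROBO2 at chr3:77225108-77225273 in Naive replicate 1, with q = 0.0281, a fold of 4.81 and a pileup (coverage signal) of 13.4. Libraries had 17164402 to 18928589 reads left after duplicate removal, against 17074000 for the Input, and listed between 4536 and 12207 peaks each, of which 16 to 58 reached q of 0.05 or less.

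ROBO2, the receptor with the most peaks, was low in the BDNF group. The Naive libraries held 8, 7 and 7 ROBO2 peaks, the BDNF libraries 3, 0 and 4, and the BDNF+Dox libraries 10, 6 and 9. Every BDNF library thus lay below every library of both other groups, and Naive and BDNF+Dox overlapped. The Naive mean was 7.33 ± 0.577 (SD, n = 3), the BDNF mean 2.33 ± 2.08 and the BDNF+Dox mean 8.33 ± 2.08. BDNF+Dox exceeded BDNF by 6 peaks per library, a ratio of 3.57, and BDNF lay 5 below Naive. Both differences had an exact two-sided permutation p of 0.1, the smallest that 3 libraries against 3 can give. Over the 3 groups the exact permutation test of the F ratio gave p = 0.0214 for ROBO2 and a Benjamini-Hochberg adjusted p of 1 over the 7453 protein-coding genes with a library peak. BDNF+Dox and Naive differed by 1 peak per library (exact permutation p = 0.6).

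ROBO1, which binds the same ligands, was ordered in the same way with more overlap. Its peaks numbered 7, 3 and 5 in Naive, 3, 1 and 2 in BDNF and 9, 5 and 4 in BDNF+Dox. Every BDNF+Dox library exceeded every BDNF library, whereas the lowest Naive and the highest BDNF library tied at 3. The means were 5 ± 2 (SD, n = 3), 2 ± 1 and 6 ± 2.65. BDNF+Dox exceeded BDNF by 4 peaks, a ratio of 3 (exact two-sided permutation p = 0.1), and by 2.5 peaks without BDNF+Dox replicate 1, the library with 9. The F test over the 3 groups gave an exact permutation p of 0.121 and an adjusted p of 1. BDNF lay 3 peaks below Naive (exact permutation p = 0.2).

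**Figure D1:**
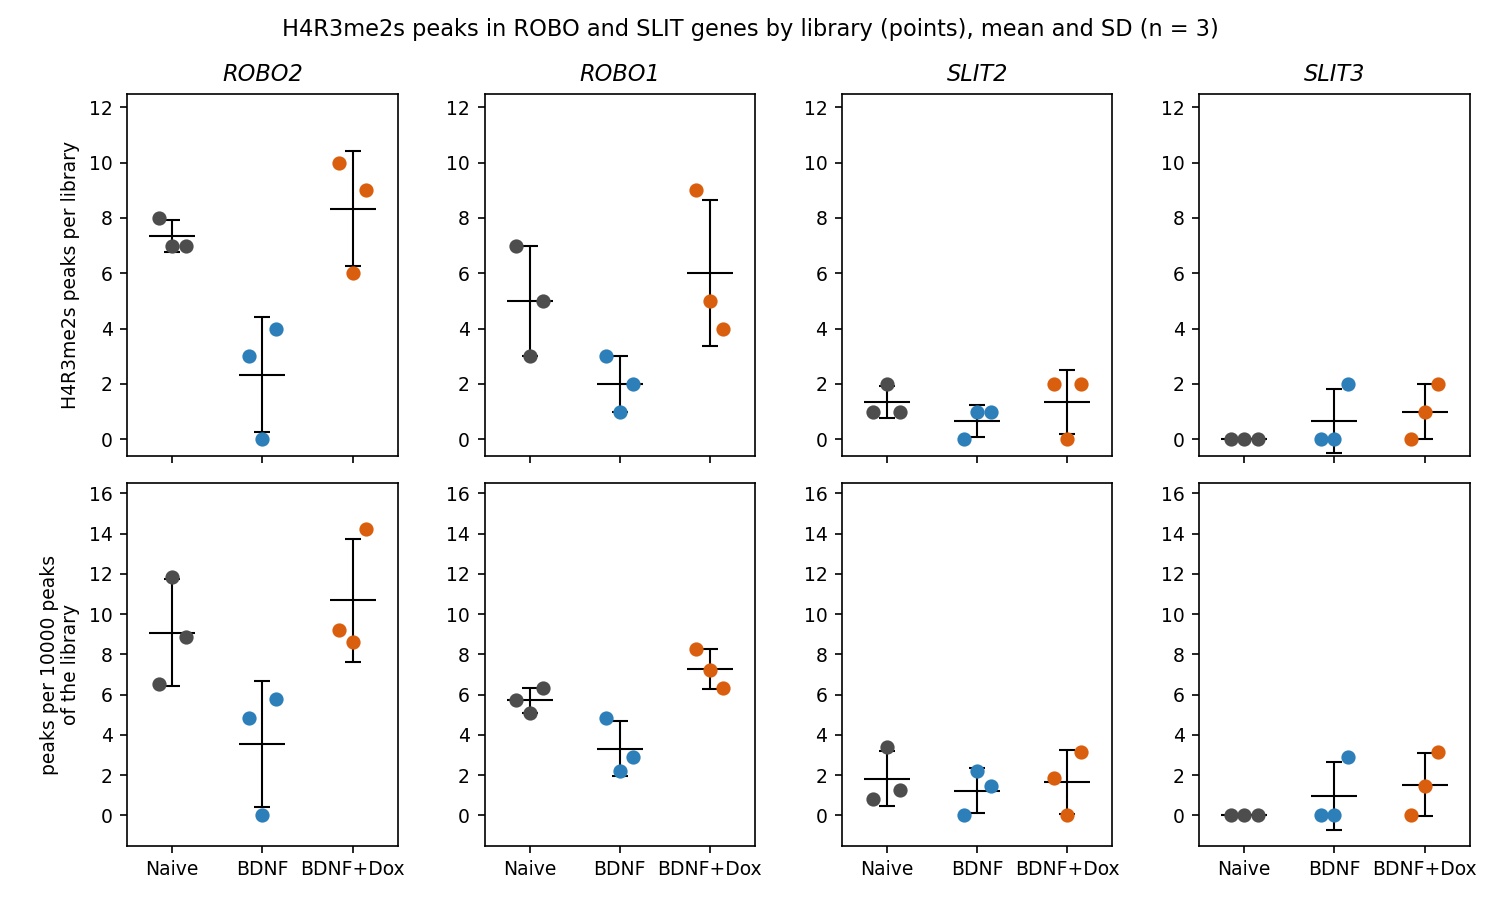
H4R3me2s peaks in ROBO2, ROBO1, SLIT2 and SLIT3 by group, as peaks per library (upper row) and as peaks per 10000 peaks of the library (lower row). Points are libraries, the wide mark is the group mean and the bar the SD (n = 3). The BDNF libraries of ROBO2, at 3, 0 and 4 peaks, lie below all libraries of both other groups in both rows.

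A part of the other long genes had separated groups too. No protein-coding gene reached an adjusted p under 0.05 (0 of 7453, 0%). The exact permutation p cannot fall below 0.00357, so a gene could pass only together with a large number of others at that value. Unadjusted, 70 genes (0.939%) had a p under 0.05, ROBO2 among them. Among the 708 genes with 9 or more library peaks, 27 did (3.81%), and among the 69 genes of 1 Mb or more, 4 did (5.8%). ROBO1 and ROBO2 were 2 of the 5 members with a library peak in which all BDNF+Dox libraries exceeded all BDNF libraries, a pattern of 1.62% of all genes with a peak, 7.2% of those with 9 or more peaks and 14.5% (10 of 69) of those of 1 Mb or more. All Naive libraries exceeded all BDNF libraries in 1 member, ROBO2, and in 1.11%, 5.08% and 10.1% of the same sets. Of the 69 longest genes, only ROBO2 and the synaptic adhesion gene NRXN3 had all BDNF libraries below all others (2.9%, beside 0.228% of all genes with a peak and 1.69% of those with 9 or more). NRXN3 was named after its values were seen. The reverse, all BDNF libraries above all BDNF+Dox libraries, occurred in 0 of these 69 genes and in 0.201% of all genes with a peak.

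The BDNF libraries also listed fewer peaks in total, from 4536 to 6888, than most of the others (5901 to 12207 in Naive and 6330 to 10864 in BDNF+Dox). Per 10000 peaks of the library, ROBO2 held 6.55, 11.9 and 8.85 in Naive, 4.86, 0 and 5.81 in BDNF and 9.20, 8.64 and 14.2 in BDNF+Dox. The BDNF libraries remained the lowest 3 on this scale. ROBO1 held 5.73, 5.08 and 6.32 in Naive, 4.86, 2.205 and 2.90 in BDNF and 8.28, 7.20 and 6.32 in BDNF+Dox, so that here too BDNF was lowest. On this scale all BDNF libraries lay below all others in 0.228% of genes with a peak, 1.69% of those with 9 or more and 4.35% (ROBO1, ROBO2 and NRXN3) of those of 1 Mb or more. On this scale the F test gave exact permutation p = 0.0393 for ROBO2 and 0.00357 for ROBO1, the smallest value that the 1680 assignments allow, with adjusted p of 1 for both. Unadjusted p under 0.05 on this scale was found for 1.4% of all genes with a peak and for 5.8% of those of 1 Mb or more, with 0 of 7453 past the adjusted threshold. With the same number of peaks taken from each library by p-value (4536), ROBO2 held 3, 4 and 3 peaks in Naive, 0, 0 and 3 in BDNF and 3, 5 and 5 in BDNF+Dox. BDNF+Dox then exceeded BDNF by 3.33 ROBO2 peaks per library in place of 6 (exact two-sided permutation p = 0.2). The F test gave an exact permutation p of 0.0571, and the groups touched at 3. In ROBO1 they overlapped, at 1, 2 and 3 peaks in Naive, 2, 1 and 1 in BDNF and 2, 2 and 2 in BDNF+Dox. BDNF+Dox then exceeded BDNF by 0.67 ROBO1 peaks per library in place of 4 (exact two-sided permutation p = 0.4), and the F test gave an exact permutation p of 0.571 and an adjusted p of 1.

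Stricter peaks also removed the separation in ROBO2. At a −log10 p of 3 or more, ROBO2 kept 4, 4 and 3 peaks in Naive, 0, 0 and 4 in BDNF and 4, 6 and 6 in BDNF+Dox. BDNF replicate 3 then reached the Naive level, and the other BDNF libraries held none. The F test over the 3 groups gave an exact permutation p of 0.0786. At a −log10 p of 5 or more, ROBO2 kept 2, 2 and 0 peaks in Naive, 0, 0 and 1 in BDNF and 2, 1 and 1 in BDNF+Dox. There the F test for ROBO2 gave an exact permutation p of 0.454. ROBO1 kept 1 peak in all, in Naive replicate 1.

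Set against other genes of at least 1 Mb, both receptors moved in rank with the group. In the BDNF+Dox libraries together, ROBO1 ranked 8 of 69 at 15.3 peaks per Mb summed over the libraries and ROBO2 ranked 13 at 14.3, where the median gene had 10.9. In the BDNF libraries ROBO1 ranked 50 at 5.11 and ROBO2 58 at 4.01, where the median was 7.35. In the Naive libraries they ranked 25 and 26 at 12.8 and 12.6, where the median was 11.1. Over all 9 libraries they stood near the middle, at ranks 26 and 31. These ranks describe the libraries and carry no test.

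**Figure D2:**
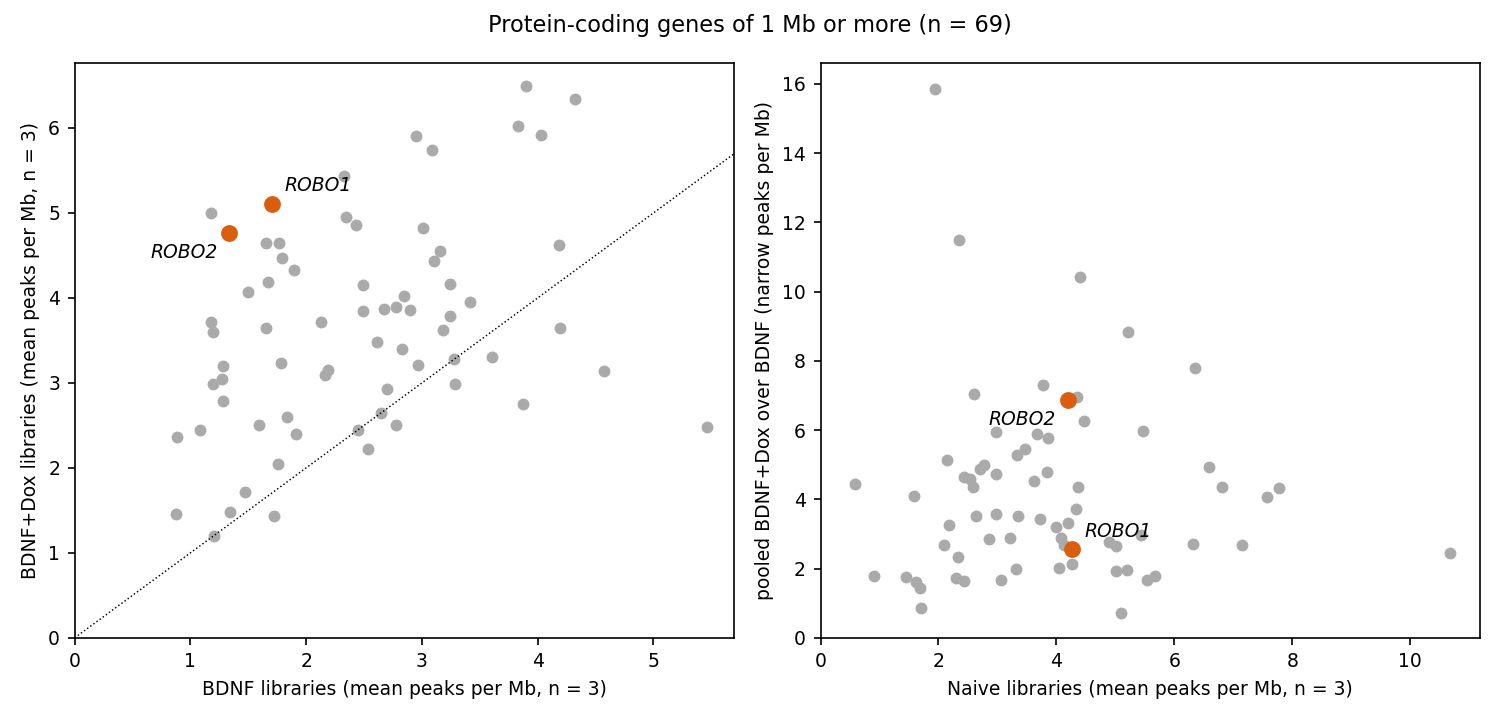
Peaks per Mb in the 69 protein-coding genes of 1 Mb or more. The left panel sets the mean of the BDNF+Dox libraries against that of the BDNF libraries (dotted line, equal values), and the right panel sets pooled narrow peaks of BDNF+Dox over BDNF against the Naive mean. ROBO1 and ROBO2 lie far above the dotted line, at ranks 8 and 13 in BDNF+Dox and 50 and 58 in BDNF, and in the pooled list ROBO2 ranks 9 and ROBO1 51.

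The ligand genes held few peaks in any group. SLIT2, a midline repellent, had 1, 2 and 1 peaks in Naive, 0, 1 and 1 in BDNF and 2, 0 and 2 in BDNF+Dox, and its groups overlapped (exact permutation p = 0.657 over the 3 groups, adjusted p = 1). SLIT3 had 0, 0 and 0 in Naive, 0, 0 and 2 in BDNF and 0, 1 and 2 in BDNF+Dox (exact permutation p = 0.679, adjusted p = 1). SLIT3 is longer than SLIT2 and held fewer peaks, and no Naive library had any. The single SLIT1 peak lay at chr10:97045155-97045478 in Naive replicate 3, 141 kb from the start site. No direction could be read for the ligands at these counts.

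Summed over the 7 genes, the Naive libraries held 3.36 ± 0.480 (SD, n = 3) peaks per Mb, the BDNF libraries 1.36 ± 0.843 and the BDNF+Dox libraries 4.00 ± 1.08. Over all protein-coding genes the same rates were 2.52 ± 0.871, 1.79 ± 0.372 and 2.63 ± 0.713, and over genes of 1 Mb or more 3.92 ± 1.51, 2.47 ± 0.393 and 3.65 ± 1.104. Relative to the coding-gene rate of the same library, the 7 genes stood at 1.11, 1.67 and 1.42 in Naive, 0.806, 0.338 and 0.999 in BDNF and 1.46, 1.27 and 1.88 in BDNF+Dox. Relative to genes of 1 Mb or more, they stood at 0.689, 1.11 and 0.941 in Naive and 0.571, 0.234 and 0.763 in BDNF. In BDNF+Dox these ratios were 1.03, 0.910 and 1.42. The sum follows ROBO1 and ROBO2, which hold most of its length.

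Along the receptor genes the peaks were spread out. ROBO2 falls into 3 stretches at its listed starts, of 406 kb before the outer start (flank included), 729 kb between the starts and 612 kb after the inner start. The first held 3, 4 and 0 peaks in the Naive libraries, 1, 0 and 0 in BDNF and 5, 1 and 1 in BDNF+Dox. The second held 2, 2 and 4 in Naive, 0, 0 and 3 in BDNF and 3, 3 and 2 in BDNF+Dox. The stretch after the inner start held 3, 1 and 3 in Naive, 2, 0 and 1 in BDNF and 2, 2 and 6 in BDNF+Dox. Each stretch had fewer BDNF peaks in sum than Naive or BDNF+Dox peaks, and within each the libraries of the groups overlapped or touched.

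In ROBO1 the 749 kb between the inner and the outer start held 5, 3 and 3 peaks in Naive, 2, 1 and 2 in BDNF and 6, 4 and 2 in BDNF+Dox. The 424 kb from the inner start to the 3′ end held 2, 0 and 2, then 1, 0 and 0, then 2, 1 and 2. The peak nearest to a listed start lay at chr3:79768716-79768963 in BDNF+Dox replicate 1, 0.819 kb upstream of the outer ROBO1 start and outside the window printed above. It was the single peak of the 109 within 2 kb of a listed start. The median distance was 222 kb.

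**Figure D3:**
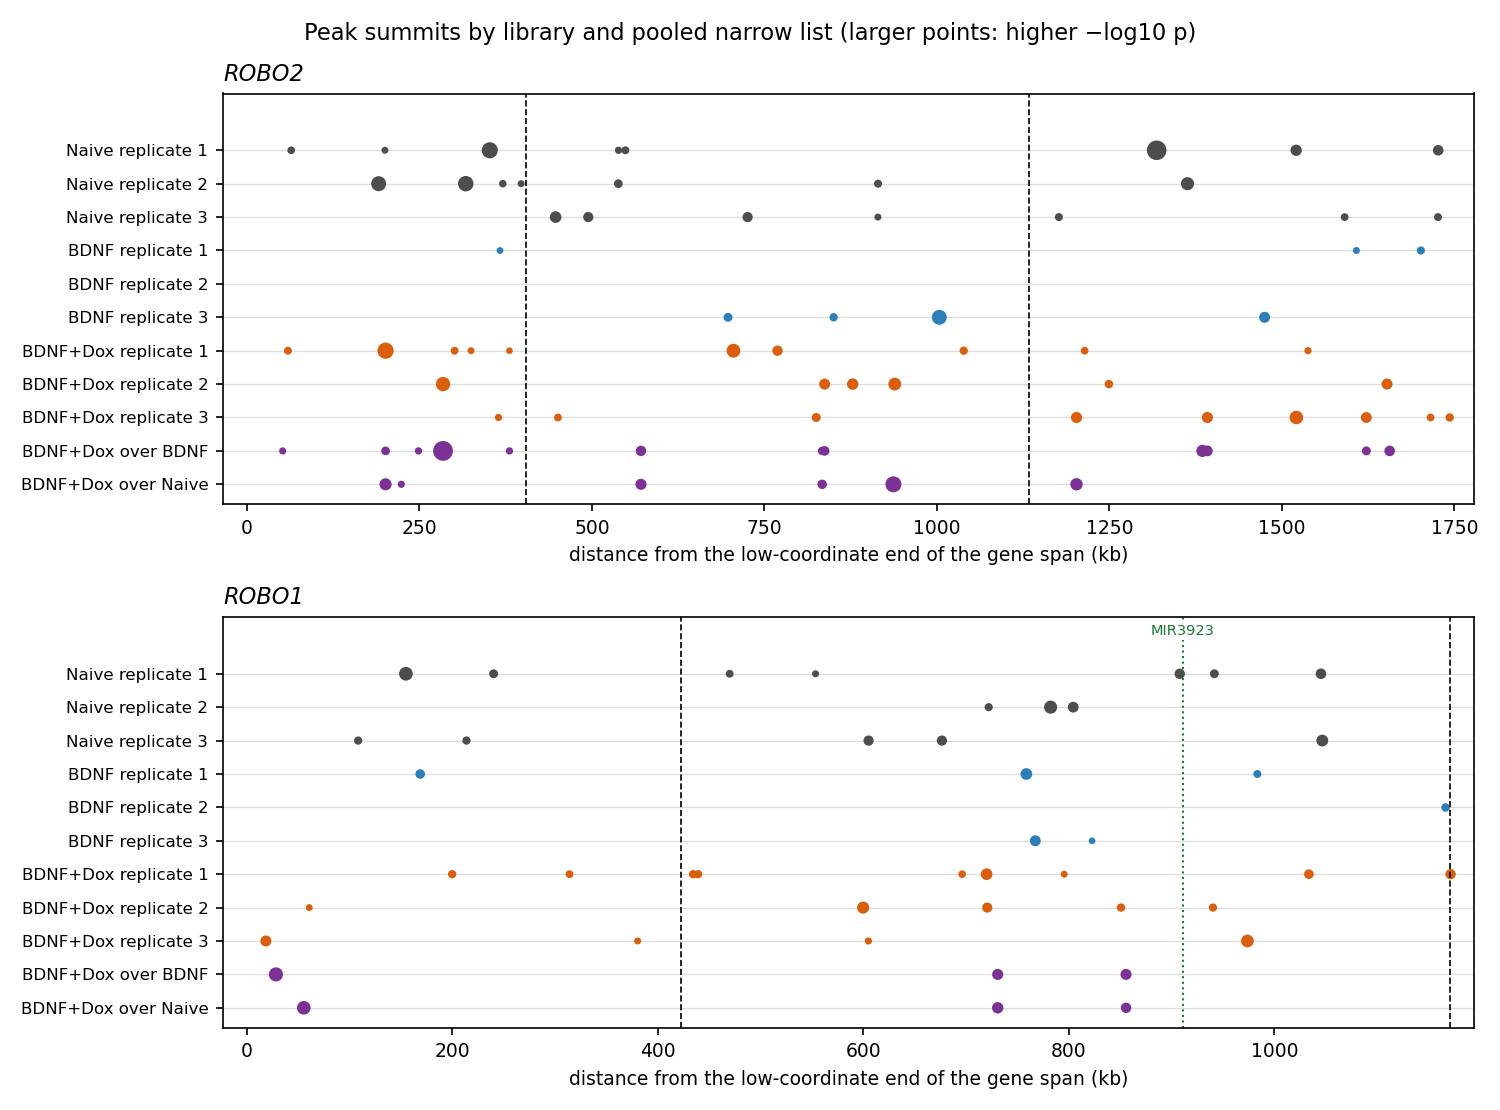
Peak summits along ROBO2 and ROBO1, in kb from the low-coordinate end of the gene, for the 9 libraries and the 2 pooled narrow lists. Larger points have a higher −log10 p, dashed lines are listed start sites and the dotted line is MIR3923. Peaks lie along both genes, libraries rarely share a position, and the row of BDNF replicate 2 is empty in ROBO2.

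Libraries rarely shared a peak position in these genes. The 109 peaks formed 108 regions, of which 1 (0.926%) had a peak in 2 libraries, beside 2.37% of all 65632 regions. It lay in ROBO1 at chr3:79202006-79202461, with a peak in Naive replicate 3 and BDNF+Dox replicate 3. When peaks within 500 bp of each other were joined, 6 of 103 regions (5.83%) had 2 libraries, beside 4.55% of all. The added ROBO1 region, at chr3:79317069-79317912, held peaks of BDNF+Dox replicates 1 and 2. In ROBO2, the regions at chr3:76444867-76445297, chr3:76821063-76821500 and chr3:77632868-77633328 each held peaks of 2 Naive libraries, and the region at chr3:77427344-77427752 held peaks of Naive replicate 1 and BDNF+Dox replicate 3. None of the 6 held a BDNF peak, where the BDNF libraries listed only 17 of the 109 peaks, and none had 3 libraries. The differences in peak number above are therefore differences in how many peaks were listed per gene, at positions that mostly differed between libraries of 1 group.

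The authors also called peaks of merged BDNF+Dox reads over merged BDNF reads and over merged Naive reads. Such lists have no replicates, test for more signal in BDNF+Dox alone, and share the BDNF+Dox reads. In the authors' deposited table over BDNF, narrow peaks numbered 12 in ROBO2, 3 in ROBO1, 2 in SLIT3 and 1 in SLIT2. The table over Naive listed 7, 3, 2 and 1 in the same order. SLIT1, ROBO3 and ROBO4 had none in either. Having a narrow peak was the rule for long genes, with 14.7% of all protein-coding genes, 91.1% of those of 500 kb or more and 100% of those of 1 Mb or more over BDNF, and 13.1%, 83.8% and 97.1% over Naive.

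ROBO2 held 6.87 narrow peaks per Mb over BDNF and ranked 9 of the 69 longest genes, whose median was 3.52. Over Naive it held 4.01 per Mb and ranked 18, where the median was 3.10. ROBO1 held 2.55 per Mb in both lists and ranked 51 and 46. The receptor whose BDNF+Dox libraries ranked highest was in the lower part of the pooled lists. In the broad lists ROBO2 had 25 peaks over BDNF and 14 over Naive, ROBO1 10 and 7, SLIT2 4 and 2 and SLIT3 3 and 4. A broad peak was present in 25.5% and 23.7% of all protein-coding genes, and in 100% of those of 1 Mb or more in both lists. By broad peaks per Mb, ROBO2 ranked 11 of these 69 over BDNF (14.3, median 10.0) and 37 over Naive (8.01, median 8.18). ROBO1 ranked 46 and 49, at 8.51 and 5.96 per Mb.

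Only 1 of these pooled narrow peaks reached q of 0.05 or less, in ROBO2. In the authors' deposited table over BDNF it lay at chr3:76190725-76190973 at q = 0.0112, with a fold of 4.02 over local background. It lies inside the ROBO2 span, 120 kb before the listed outer start, and BDNF+Dox replicate 2 alone had a library peak there, at chr3:76190754-76190921. A peak at this q was found in 24 of 19974 protein-coding genes (0.12%) and in 3 of the 69 longest (4.35%). The strongest ROBO2 peak in the list over Naive was another place, chr3:76843566-76843728, with a fold of 3.71 at q = 0.131 (authors' deposited table). No library peak overlapped it, and the nearest BDNF+Dox library peak was 1.83 kb away.

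For ROBO1, the smallest q over BDNF in the authors' deposited table was 0.438, with a fold of 3.28 at chr3:78625399-78625568. Over Naive it was 0.564, with a fold of 3.47 at chr3:78652478-78652658 in the authors' deposited table. Both lie toward the 3′ end of the gene. SLIT2 had its single narrow peak at chr4:20565668-20565853 over BDNF, at q = 0.827 and 2.98-fold (authors' deposited table). Over Naive the SLIT2 peak was at chr4:20565668-20565850 at q = 1 and 2.94-fold (authors' deposited table).

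SLIT3 had the smallest q of the ligand genes. Over Naive, the authors' deposited table gave it a fold of 3.93 and q = 0.0593 at chr5:169033121-169033283, which misses the threshold. It lies within the span of SLIT3-AS1, a noncoding gene that overlaps SLIT3, 268 kb from the SLIT3 start. The nearest BDNF+Dox library peak was 88.6 kb away, so no single library listed it. Over BDNF the best SLIT3 peak in the authors' deposited table had a fold of 2.77 and q = 1 at chr5:168781458-168781620. For genes with a narrow peak at q of 0.05 or less over Naive the background was 0.19%, and no member was among them.

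**Figure D4:**
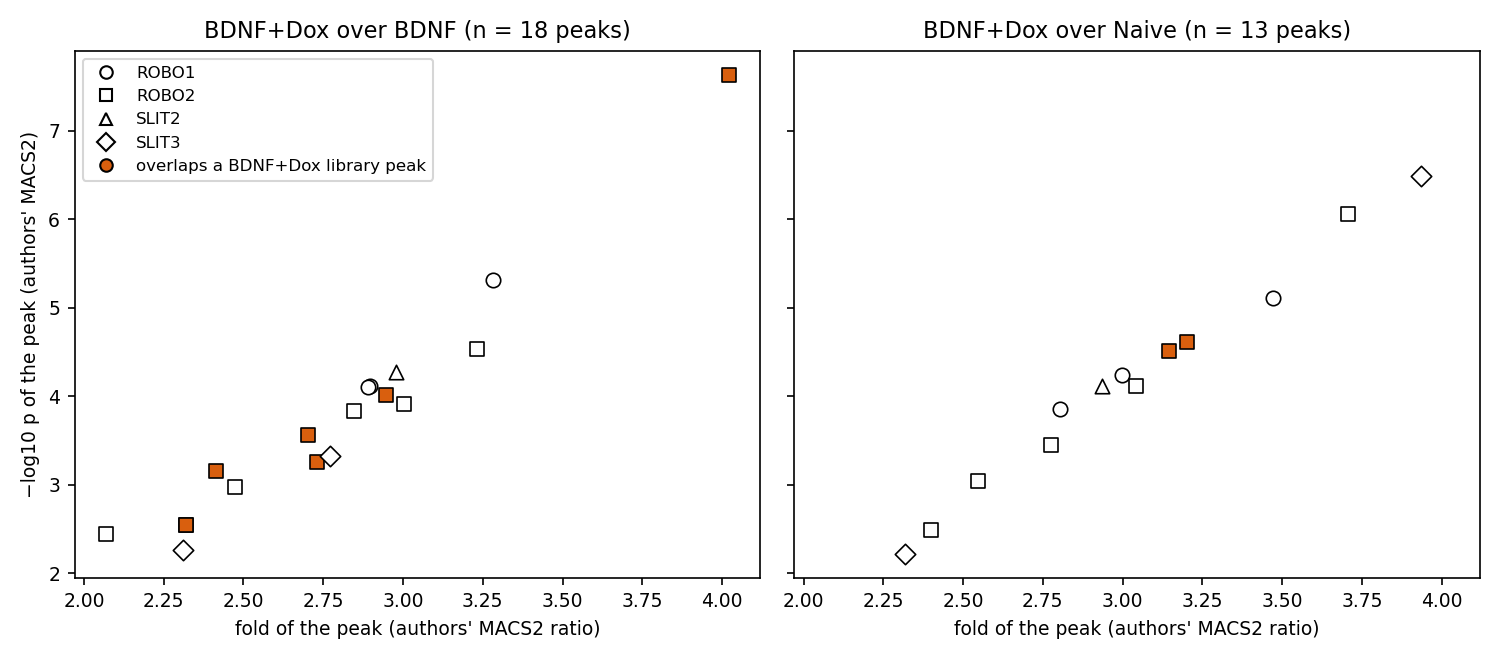
Fold and −log10 p, both the authors' values, of the pooled narrow peaks in ROBO and SLIT genes over BDNF (18 peaks) and over Naive (13 peaks). Symbols are genes and filled symbols overlap a peak of a BDNF+Dox library. The ROBO2 peak at the upper right over BDNF has q = 0.0112 in the authors' deposited table, and filled symbols, 6 and 2, are all ROBO2.

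In the narrow lists, library peaks underlay ROBO2 peaks alone, while in the broad list over BDNF 8 ROBO2 peaks, 1 ROBO1 peak and 1 SLIT2 peak overlapped a BDNF+Dox library peak. Over BDNF, 6 of the 18 narrow peaks (33.3%) overlapped a peak of a BDNF+Dox library, all in ROBO2 and each with 1 library, beside 17.9% of all 9850 narrow peaks. Over Naive, 2 of 13 (15.4%) did, also in ROBO2, beside 18.3% of all 7882. In neither list did a narrow peak of these genes overlap a BDNF or Naive library peak, and few did anywhere (0.0102% and 0.893% of all narrow peaks over BDNF, 0.622% and 0.0254% over Naive). The median fold in the list over BDNF was 2.81 in the authors' deposited table, where all narrow peaks had 2.77. The median fold in the list over Naive was 3.00 in the authors' deposited table against 2.78. A q of 1 was carried by 12 of the 18 (66.7%, beside 68.5% of all narrow peaks) and 8 of the 13 (61.5%, beside 82.8%).

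SLIT2 and SLIT3 each carry a copy of the gene for miR-218, and miR-218 is known to act on ROBO1 transcripts. The mature sequences from RefSeq are shown because both ligand genes yield the same 5p arm while the 3p arms differ. The seed (bases 2 to 8) is in capitals.
hsa-miR-218-5p, from MIR218-1 and MIR218-2: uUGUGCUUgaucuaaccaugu
hsa-miR-218-1-3p, from MIR218-1: aUGGUUCCgucaagcaccaugg
hsa-miR-218-2-3p, from MIR218-2: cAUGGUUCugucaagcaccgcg
MIR218-1 lies in SLIT2 at chr4:20528275-20528384, and the nearest library peak was 3.32 kb away, in BDNF replicate 2. The nearest pooled peak was 29.2 kb away. MIR218-2 lies in SLIT3 at chr5:168768146-168768255, with the nearest library peak at 36.4 kb and the nearest pooled peak at 13.2 kb. No library or pooled peak overlapped either hairpin. MIR3923 in ROBO1 (chr3:79507887-79507969) had a Naive replicate 1 peak at 2.63 kb, and MIR585 in SLIT3 had none closer than 41.7 kb.

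**Figure D5:**
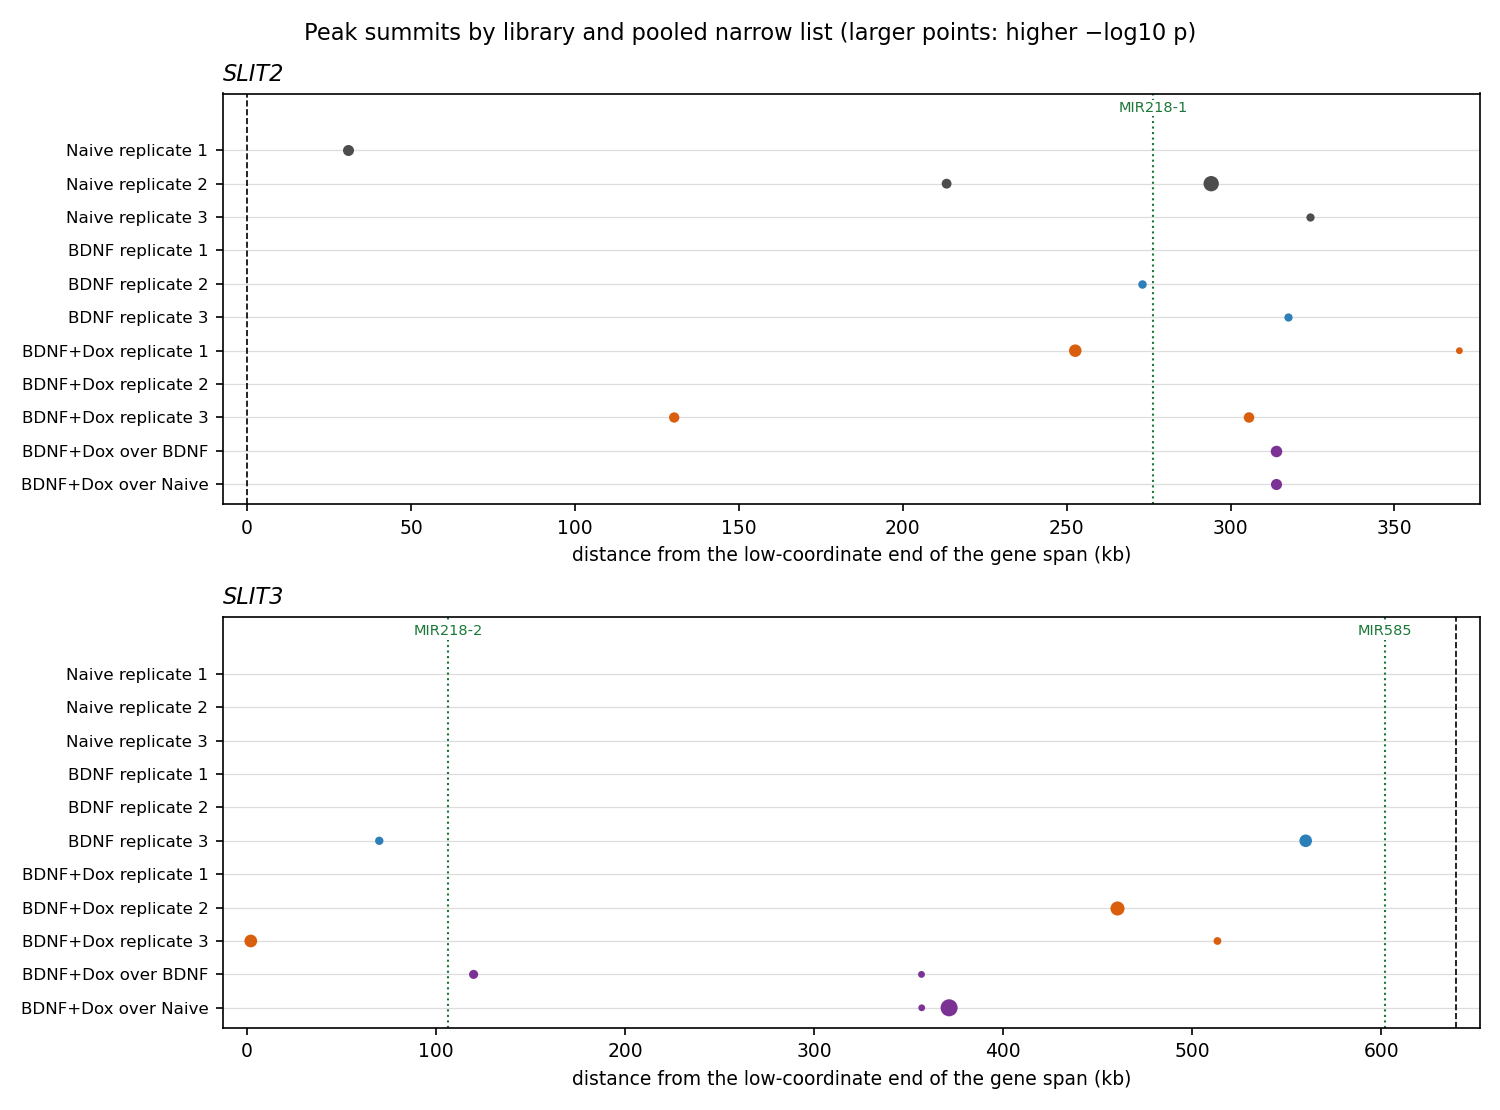
Peak summits along SLIT2 and SLIT3, in kb from the low-coordinate end of the gene, for the 9 libraries and the 2 pooled narrow lists. Larger points have a higher −log10 p, dashed lines are start sites and dotted lines are microRNA genes. SLIT2 holds 10 library peaks and SLIT3 5, none of them in a Naive library for SLIT3.

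The genes that work with ROBO and SLIT were described from a list of 34, including adaptors, co-receptors and other ROBO ligands. Of these, 23 had a library peak, 0 had an adjusted p under 0.05 and 0 an unadjusted p under 0.05 by the exact test over the 3 groups. An unadjusted p under 0.05 was found for 0.939% of all genes with a peak. In 0 of the 34 were all BDNF+Dox libraries above all BDNF libraries or all Naive libraries above all BDNF libraries, or the reverse of either, at a median length of 147 kb. Over all genes with a peak, these patterns were found in 1.62% and 1.11%, and each reverse in 0.201%. At these shares few or none would be found among 23 genes. DCC, the netrin receptor that ROBO1 can silence, is long at 1196 kb and had the most peaks, with 6, 1 and 3 in Naive, 6, 2 and 2 in BDNF and 6, 5 and 3 in BDNF+Dox. Its groups overlapped throughout (exact permutation p = 0.743 over the 3 groups).

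NELL1, whose family includes the ROBO3 ligand NELL2, had 6, 0 and 2, then 3, 1 and 1, then 2, 3 and 3 peaks in the same order of groups. SOS1, an exchange factor recruited to ROBO, had 2, 1 and 0, then 1, 1 and 2, then 0, 2 and 2. NELL2 had 1, 0 and 0, then 2, 1 and 1, then 5, 0 and 0. ENAH, an actin regulator of the Ena/VASP family, had 0, 1 and 1, then 0, 1 and 0, then 4, 2 and 0. SRGAP1, whose product binds ROBO1, had 1, 1 and 0, then 0, 0 and 1, then 2, 2 and 0. In the pooled lists 13 of the 34 had a narrow peak over BDNF and 16 over Naive, beside 14.7% and 13.1% of all protein-coding genes, whatever their length. ABL2, an Abl-family kinase, was the 1 partner at q of 0.05 or less, with q = 0.0212 over BDNF in the authors' deposited table, beside 0.12% of all protein-coding genes, and 0 reached it over Naive, beside 0.19%.

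The genes whose profile over the 9 libraries was most like that of ROBO2, in peaks per 10000 peaks among the 705 other genes with 9 or more peaks (ROBO and SLIT genes and genes overlapping them left out), were ANK3 (Pearson r = 0.93), DGKI (0.86), CAMKMT (0.85), AGBL1 (0.85) and OSBPL3 (0.84). The 9 points share their libraries and list lengths, and these are the highest of 705 values, so r is a description. ANK3, which encodes ankyrin-G of the axon initial segment, had 3, 2 and 3 peaks in Naive, 1, 0 and 1 in BDNF and 4, 3 and 4 in BDNF+Dox. None of the 5 is one of the 34 partners.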

How the data were processed

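Cutadapt 1.1 and Trimmomatic 0.32 (trimming), Bowtie (alignment to GRCh38) and MACS2 2.2.7.1 (peaks) are named in the submitters' processing notes. MACS2 set each library against the Input and made narrow lists with p up to 0.01, keeping 1 read per position and using background windows of 1000 and 10000 bp, per the file headers. Merged BDNF+Dox reads were set against merged BDNF and merged Naive reads, narrow and broad. A deposited peak carries the authors' pileup (coverage signal), −log10 of p and of q, and a fold (ratio over local background). The q column was used as deposited, although the headers announce none. Lists made at this p without replicate checks hold many weak peaks: libraries of 1 group shared between 0.405% and 1.24% of their peaks.

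Peaks were counted per gene span plus 2 kb with Python 3.11.15, numpy 2.4.6 and pandas 2.3.3. Every protein-coding gene with at least 1 library peak (7453) was tested by the F ratio in all 1680 assignments of the 9 libraries to groups (exact permutation), with Benjamini-Hochberg adjustment over all of them and a threshold of 0.05, and each pair of groups by its difference of means in 20 assignments, two-sided. The scripts were tested on simulated data. Without read counts per region, single peaks have no interval. Pooled lists and sums over genes got no test. Start sites, sequences and gene spans are RefSeq's (GRCh38.p14), and all 7 genes matched.

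Named were the 7 genes, of 34 pathway partners the 6 with the most library peaks and those with a pooled narrow peak at q of 0.05 or less, the 5 genes most like the member with the most peaks, the pooled peak with the smallest q per gene and list, and regions with 2 or more libraries. The members and lists were chosen with earlier results of these data known. The limits of 9 peaks, 500 kb and 1 Mb used to describe other genes were chosen after seeing the data. Alternatives were stricter peaks, equal peak numbers, peaks per 10000, spans without flanks, summits, broad peaks, wider joining, a stricter overlap, a replicate block and leaving out each library.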

Additional observations from a re-analysis of the deposited data

How the results depend on the processing

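No member gene that could be tested (5 of 7) was called under any of up to 16 alternatives per gene, the lowest adjusted p being 0.899 (exact permutation test). The main test cannot give an exact permutation p below 0.00357. With adjustment over all tested genes, a call was therefore hardly possible under any setting, and its absence says little about stability. In ROBO1 and ROBO2 the BDNF+Dox and BDNF libraries stayed apart with spans without flanks, with summits and per 10000 peaks, and overlapped or touched at −log10 p of 3 and 5 and at equal peak numbers. Leaving out a library or using the block cannot make separate groups overlap, so those alternatives say nothing here. BDNF minus Naive peaks per Mb over the 7 genes, -2.00, became -1.12 at −log10 p of 3 or more, -0.40 at 5 or more and -0.80 at equal peak numbers. BDNF+Dox minus BDNF, 2.64, became 0.32 at −log10 p of 5 or more and 1.20 at equal peak numbers. Leaving out 1 library gave between 2.12 and 3.20 for BDNF+Dox minus BDNF, between -2.40 and -1.56 for BDNF minus Naive and between 0.12 and 1.20 for BDNF+Dox minus Naive. BDNF+Dox minus Naive, 0.64, was -0.08 at −log10 p of 5 or more. The ROBO1 difference between BDNF+Dox and Naive, 1 peak per library and not called, reversed to -0.33 at −log10 p of 5 or more and to -0.5 without BDNF+Dox replicate 1. The cause of these changes was not tested, beyond fewer peaks being counted at stricter thresholds.

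The 18 pooled narrow peaks over BDNF became 2 at −log10 p of 5 or more, 1 at q of 0.05 or less and 42 as broad peaks, and the 13 over Naive became 3, 0 and 27. Those overlapping a BDNF+Dox library, 6 over BDNF, became 1, 1 and 10, and the 2 over Naive became 0 at −log10 p of 5 or more and 0 at q of 0.05 or less. Leaving out 1 BDNF+Dox library left 4 over BDNF whichever was left out, and between 1 and 2 over Naive (1 without replicate 1 or replicate 3). The 1 region with 2 libraries became 0 at −log10 p of 3 or more, 0 at 5 or more and 0 at equal peak numbers, and 6 when joined within 500 bp. Leaving out 1 library gave between 0 and 1, with 0 without Naive replicate 3 or BDNF+Dox replicate 3. With the replicate number as a replicate block, ROBO1 and ROBO2 both had exact permutation p = 0.0556 and adjusted p = 1. The labels do not say whether the numbers pair the libraries. Deviations of same-numbered libraries correlated between -0.274 and 0.130, with 1 of 9 pairs over 0.1. Those of other-numbered libraries correlated between -0.198 and 0.225, with 6 of 18 pairs over 0.1. With so few libraries these values cannot exclude a pairing. The block changed no call, and the adjustment made a change hardly possible. Pooled lists start from merged reads, so no library could be left out of them.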
